A study of Homo sapiens with 2 samples.

Results

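The genes PBRM1, BAP1, SETD2, KDM6A, KMT2C, KMT2D, ARID1A, SMARCB1, SMARCA4 and ARID2 encode chromatin regulators that are recurrently mutated in renal cell carcinoma, or close partners of those regulators in the SWI/SNF complex. They were chosen by name from the 12007 gene symbols that the deposited tables list, and all 10 were present. All 10 also had a mean of at least 1 FPKM over both libraries, as did 10702 genes in all. FPKM is the number of sequenced fragments per kilobase of transcript and per 1000000 fragments. Levels of different genes are therefore compared per length. The 10 genes were expressed in both libraries, at 1.62 to 18.6 FPKM in the control, and 9 of them stood at 94.2% to 125% of that level after infection with an shRNA against KIAA1429. KDM6A stood at 155% of the control level, and the lowest value was that of PBRM1.

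ACHN cells, an established human renal carcinoma line, had been infected with a lentivirus carrying either an shRNA against KIAA1429, a scaffold subunit of the m6A writer complex (the shKIAA1429 group), or a control shRNA (the shNC group). In both groups puromycin was used to select stably infected cells, and polyadenylated RNA was sequenced, although the sample titles read total RNA-seq. The labels call the first group a knockout, whereas the study's methods describe an shRNA knockdown. The study made 2 shRNAs against KIAA1429, and the labels do not say which was used for this library. Each group was 1 library, so replicate error could not be assessed and no test was run. A fold difference is therefore a description of these 2 libraries. The files hold no read counts, and the depth behind each value is unknown. KIAA1429 itself, listed as VIRMA, stood at 3.92 FPKM in the shNC library and at 3.22 FPKM in the other. That is 82.1% of the control level, a log2 change of FPKM + 1 of -0.22. This value lay within the central 80% of the 500 genes nearest in mean FPKM, from -0.39 to 0.44, and 231 of those 500 and 48.7% of all genes had a larger change in either direction. The difference in KIAA1429 was thus of a size common among all genes, and the library labelled shKIAA1429 is named here by its label. The study itself reports, by RT-qPCR and western blot, that its shRNAs lowered KIAA1429 mRNA and protein in ACHN cells. Mitochondrial genes made up 42.2% of the summed FPKM of the listed genes in the control library and 34.6% in the other. FPKM is scaled by length, so these are not shares of reads. The part of this difference in the values was not tested beyond the rescaling given below. Renal epithelial markers were present, with 8 of 9 listed at a summed 631 FPKM with shNC and 587 FPKM with shKIAA1429, among them PAX8 and KRT18. Of the markers of other cell types, 0 of 5 for blood cells and 0 of 4 for endothelium were listed, and 2 of 4 for fibroblasts were listed at a summed 1.75 and 2.60 FPKM.

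SWI/SNF complexes use the energy of ATP to move or evict nucleosomes. SMARCA4 is their motor, SMARCB1 a core subunit that grips the nucleosome, ARID1A marks the canonical form (cBAF), and PBRM1 and ARID2 mark the polybromo form (PBAF). KMT2C and KMT2D place methyl groups on H3K4 at enhancers, in complexes that also hold KDM6A, which removes methyl groups from H3K27. SETD2 is the enzyme that trimethylates H3K36 along transcribed genes, and BAP1 removes ubiquitin from histone H2A. In clear cell renal carcinoma PBRM1, SETD2 and BAP1 are classic tumor suppressors that lie on the short arm of chromosome 3, the arm this tumor commonly loses.

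The m6A mark that KIAA1429 helps to place is laid mostly within the DRACH consensus, often near the stop codon, and GGACT is a favored form of it. The transcript of each gene with the longest coding sequence in GENCODE 29 was searched for GGACT on the sense strand. The transcripts of the 10 genes held 69 GGACT motifs in all. Their median density was 0.705 per kilobase, against 0.936 per kilobase over the 10642 genes with a transcript, and 2 of the 10, PBRM1 at 1.94 and ARID2 at 1.16 per kilobase, lay above that median. KMT2D held 16 motifs, KMT2C 12, and SMARCB1, the shortest of the transcripts, held 0. A window of 500 bases on each side of the end of the coding sequence was cut short where the transcript ended earlier. The 3′ untranslated region was 73 bases for PBRM1, 325 for SMARCB1, 404 for SETD2 and 466 for SMARCA4. Its median over all genes was 975 bases. Within this window, 6 of the 10 genes held a GGACT, as did 61.8% of all genes. The motif nearest to the stop codon in each of these 6 is given here with its flanks, from 5′ to 3′, because m6A is the mark that the targeted gene serves. Capitals mark the motif. A match is a description of the sequence only, and m6A itself was not measured in these libraries.
PBRM1: atacattgaaGGACTcagtgcggag
BAP1: gcgccagtgaGGACTgctggccctg
KDM6A: tcctactccaGGACTctcacaaagc
KMT2C: gagtacatcgGGACTatcattcgaa
SMARCA4: agaagctgtaGGACTgtttgtgact
ARID2: acacagtgggGGACTcaaagtcagc

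On GRCh38 the BAP1 stretch is chr3:52402273-52402297 on the minus strand, in exon 17 of 17, and its motif follows directly on the stop codon. The ARID2 stretch, chr12:45905094-45905118 on the plus strand, starts its motif 26 bases into the 3′ untranslated region. The corresponding distances were 157 bases for SMARCA4 (chr19:11061963-11061987, plus strand) and 177 bases for KDM6A (chrX:45111578-45111602, plus strand), both in the last exon. The other 2 stretches are coding. The PBRM1 motif, in chr3:52550458-52550482 on the minus strand, ends 220 bases before the end of the coding sequence in exon 29 of 30, and the KMT2C motif, in chr7:152139716-152139740 on the minus strand, ends 327 bases before it in exon 56 of 59. Among the members with such a motif, KDM6A and KMT2C had the highest changes of all members, as given below. PBRM1, ARID2, BAP1 and SMARCA4 also held one, and they were the only members lower in the shKIAA1429 library as deposited. SETD2, KMT2D, ARID1A and SMARCB1 held none within 500 bases of the end of the coding sequence, and they were higher. These directions depended on the processing. After rescaling each library to a sum of 1000000, all 10 members were higher. With the trend of change with transcript length and GC content removed, SMARCA4 was at 0.013 and SETD2 at -0.060. Genes with and without the motif were not compared over all genes. Whether the motif and the change are linked was not tested.

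The SWI/SNF members spanned a wide range of levels. SMARCB1 (chromosome 22 of GRCh37, 24129150 to 24176703) was the most abundant of the 10 genes, at 18.6 FPKM with shNC and 20.3 FPKM with shKIAA1429. SMARCA4 (chromosome 19, 11071677 to 11176071) was at 10.6 FPKM with shNC and 10.5 FPKM with shKIAA1429. Its level in the shKIAA1429 library was 98.8% of the control level, the smallest difference among the 10 genes. ARID1A (chromosome 1, 27019727 to 27108595) was at 7.90 and 9.48 FPKM, or 120% of the control level. This was the largest difference among the SWI/SNF members. The PBAF members had lower levels. ARID2 (chromosome 12, 46123448 to 46301823) was at 5.49 FPKM with shNC and 5.25 FPKM with shKIAA1429. PBRM1 (chromosome 3, 52579368 to 52719933) was at 3.15 and 2.96 FPKM, or 94.2% of the control level. Both PBAF members were thus slightly lower in the shKIAA1429 library as deposited. They were slightly higher once the FPKM of each library were rescaled to sum to 1000000, and lower again, at log2 changes of -0.078 for PBRM1 and -0.060 for ARID2, when mitochondrial genes were left out before rescaling.

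The histone-modifying members differed more from each other. KMT2D (chromosome 12, 49412758 to 49453557) was at 12.6 FPKM with shNC and 13.5 FPKM with shKIAA1429. Its paralog KMT2C (chromosome 7, 151832007 to 152133090) was at 4.42 and 5.54 FPKM, or 125% of the control level. Segments of KMT2C have near-identical copies elsewhere in the genome, so its reads could have been divided with them. KDM6A (chromosome X, 44732423 to 44971847) was the least abundant of the 10 genes, at 1.62 FPKM with shNC and 2.51 FPKM with shKIAA1429. Its level in the shKIAA1429 library was 155% of the control level, the largest difference of the 10 genes. SETD2 (chromosome 3, 47057919 to 47205457) was at 8.04 FPKM with shNC and 8.88 FPKM with shKIAA1429. BAP1 (chromosome 3, 52435029 to 52444366) was at 9.07 FPKM with shNC and 8.78 FPKM with shKIAA1429, or 96.9% of the control level.

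**Figure D1:**
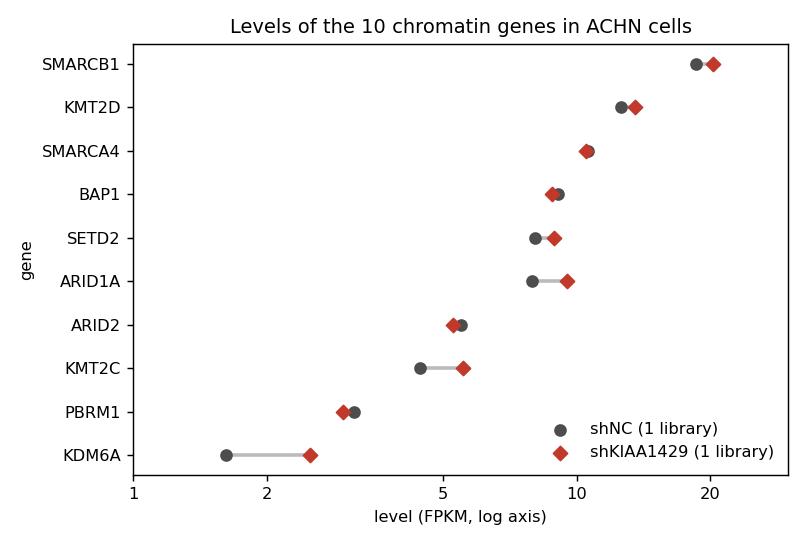
Levels of the 10 genes in FPKM on a log axis, with 1 point for the shNC library and 1 for the shKIAA1429 library, ordered by the shNC level. The points of SMARCA4, BAP1, PBRM1 and ARID2 nearly coincide, and those of KDM6A, at 1.62 and 2.51 FPKM, lie farthest apart.

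The order of levels was nearly the same in both libraries. SMARCB1, KMT2D and SMARCA4 held the first 3 places in each, and PBRM1 and KDM6A the last 2. The highest level was 11.5 times the lowest with shNC and 8.10 times with shKIAA1429. Neighbors changed places only where their levels were close. ARID1A was in place 6 with shNC and place 4 with shKIAA1429, and BAP1 was in place 4 and then place 6. ARID2 and KMT2C exchanged places 7 and 8. Without replicates, neighboring levels cannot be said to differ. In each library 6 of the 10 genes were above the median level of the 10702 genes, 5.70 FPKM in the control and 6.10 FPKM with shKIAA1429. None of the members overlaps a listed gene on its own strand except KMT2D, which overlaps PRKAG1.

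The change of a gene is given here as log2(FPKM + 1) in the shKIAA1429 library minus log2(FPKM + 1) in the control, a scale that understates the change of low genes. It was 0.42 for KDM6A, 0.27 for KMT2C, 0.24 for ARID1A, 0.13 for SETD2, 0.12 for SMARCB1 and 0.097 for KMT2D. The values of SMARCA4, BAP1, ARID2 and PBRM1 were -0.016, -0.041, -0.055 and -0.065. Thus 6 of the 10 genes were higher in the shKIAA1429 library, against 57.3% of all genes. The median of the 10 genes was 0.11, against 0.058 over all genes. Rescaling to a sum of 1000000 shifted the median of all genes upward by 0.18 and put all 10 members and 74.6% of all genes higher. With mitochondrial genes left out before rescaling, 6 of the 10 members and 57.7% of all genes were higher. Under each of these scalings 6 of the 10 were above the median of all genes. As deposited, the share of higher members was therefore close to the share over all genes.

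**Figure D2:**
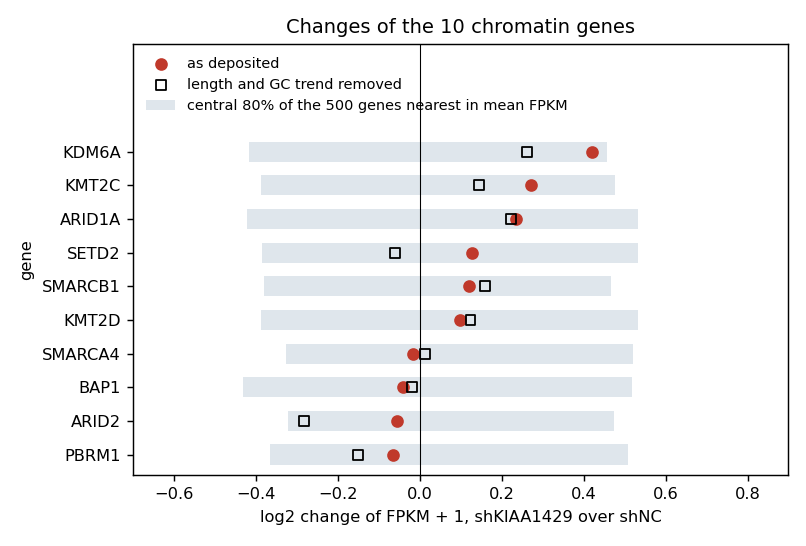
Log2 change of each gene as deposited (filled circles) and with the trend of change with transcript length and GC content removed (open squares). The bars span the central 80% of the 500 genes nearest in mean FPKM, and all 10 filled circles lie within their bars.

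None of the members passed the limits used to mark larger differences. A log2 change above 0.5 was found for 0 of the 10 genes and for 9.9% of all genes, and a change below -0.5 for 0 of the 10 and for 6.12% of all genes. Past 1 in either direction were 0 of the 10 genes and 2.5% of all genes, and past 1.5, the fold-change limit of the study's methods, 0 of the 10 and 0.635% of all genes. KDM6A, the member nearest to a limit, stood at 0.42. It passed 0.5 with a pseudocount of 0.1, at 0.60, and after rescaling, at 0.72. All 10 changes lay within the central 80% of the 500 genes nearest in mean FPKM. For KDM6A this range ran from -0.42 to 0.46, and 108 of the 500 genes had a larger change in either direction. For SMARCA4 the number was 485 of 500.

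**Figure D3:**
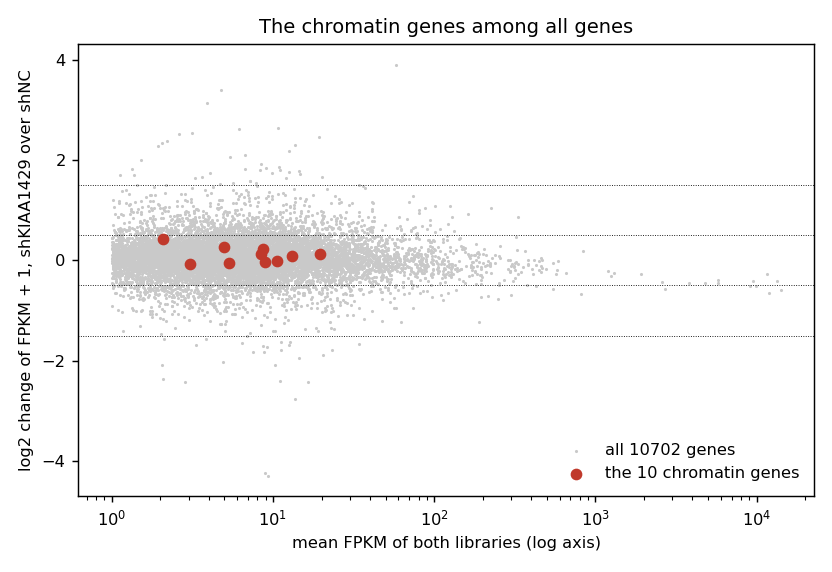
Log2 change against mean FPKM (log axis) for the 10702 genes, with the 10 chromatin genes marked and dotted lines at the limits of 0.5 and 1.5 in each direction. The marked genes lie between -0.065 and 0.42, within the dense band of all genes.

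Most members have long transcripts, and changes in these libraries moved with transcript length. The median transcript length of the 10 genes was 7033 bases, against 3029.5 bases over all genes. ARID1A, ARID2, KMT2C, KMT2D and SETD2 were in the longest of 10 bins of genes by length, which started at 6976 bases. SMARCB1, at 1717 bases, was the only member below the median of all genes. Across these bins the median log2 change went from -0.060 in the shortest to 0.15 in the longest, and the share of higher genes from 42.8% to 71.5%. SETD2, KMT2D and ARID2 were below the median of their bin, and KMT2C and ARID1A were above it. With the median of genes alike in length and GC content subtracted, KDM6A was at 0.26 and KMT2C at 0.14. SETD2 was then at -0.060, and ARID2 had the lowest value, -0.28. What gave rise to the trend was not tested.

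**Figure D4:**
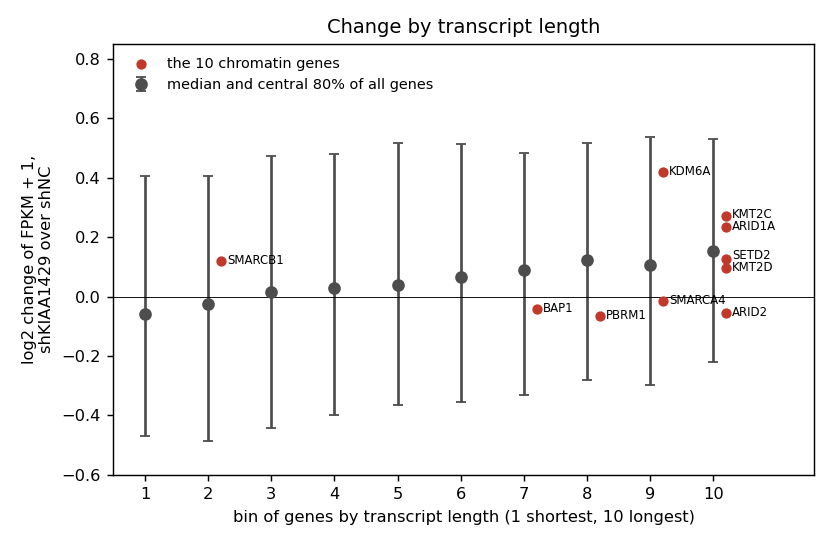
Median log2 change of all genes in 10 bins by transcript length, with bars over the central 80% of genes, and the 10 chromatin genes beside their bin. The median goes from -0.060 to 0.15, and SETD2, KMT2D and ARID2 lie below the median of the longest bin.

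The balance between paralogs and partners was compared within each library, since a share does not depend on the scaling of the library. SMARCA4 made up 83.2% of the FPKM of both SWI/SNF motors with shNC and 84.6% with shKIAA1429, the rest being SMARCA2, at 2.14 and 1.92 FPKM. ARID1A made up 80.8% and 84.3% of its sum with ARID1B. Against ARID1A, the share of ARID2, which takes the place of ARID1A in PBAF, was 41.0% with shNC and 35.6% with shKIAA1429, the largest difference of the 10 pairs. The share of PBRM1 in its sum with ARID2 was 36.4% and 36.1%. Both PBAF members thus stood in nearly the same ratio to each other, and ARID1A was higher beside them in the shKIAA1429 library. KMT2C made up 26.0% of its sum with KMT2D in the control library and 29.1% in the shKIAA1429 library. For KMT2A, the founding member of this methyltransferase family, the share of its sum with KMT2B was 51.1% and 54.7%. KDM6A made up 24.0% and 26.3% of its sum with KDM6B, the other H3K27 demethylase, which was itself at 5.12 FPKM with shNC and 7.02 FPKM with shKIAA1429. SETD2 made up 63.6% and 67.1% of its sum with NSD1, an H3K36 dimethyltransferase. BAP1 made up 54.5% and 52.4% of its sum with ASXL1, the partner that activates it.

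The subunits of the SWI/SNF complexes were spread on both sides of 0. Of 28 such genes, the 5 SWI/SNF members included, 26 were measured, and DPF1 and DPF3, cBAF subunits known from neurons and muscle, were not listed. Higher values in the shKIAA1429 library were found for 11 and lower values for 15, so that 42.3% were higher against 57.3% of all genes. The median log2 change was -0.044 against 0.058 over all genes, and after rescaling it was 0.12 against 0.24. Of the 21 subunits that are not among the 10 genes, 9 were higher and 12 lower, with a median of -0.058, or 0.081 after rescaling. The core and shared subunits had 6 higher and 10 lower of 16, or 37.5% higher against 57.3% of all genes. Their median was -0.17, and -0.022 after rescaling against 0.24 over all genes. BCL7C, a shared accessory subunit, was at 20.5 FPKM with shNC and 13.1 FPKM with shKIAA1429, a log2 change of -0.60. SMARCC2, a scaffold subunit, was at 25.1 and 18.6 FPKM. SMARCE1, a DNA-binding subunit, was at 14.4 FPKM with shNC and 20.5 FPKM with shKIAA1429, and SS18 was at 15.1 and 18.8 FPKM. SMARCB1 and SMARCA4 thus stood between subunits that differed in opposite directions.

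The form-specific subunits gave small groups. Of the 4 PBAF genes, PHF10, a subunit with PHD fingers, was at 12.1 FPKM with shNC and 7.29 FPKM with shKIAA1429, a log2 change of -0.66. BRD7 was at 16.8 and 17.8 FPKM. PHF10 was thus the only 1 of the 4 PBAF genes below -0.5, against 6.12% of all genes, and PBRM1 and ARID2 were near 0. Of all 26 measured SWI/SNF genes, 2 were below -0.5, BCL7C and PHF10. Above 0.5 were 0 of the 26, against 9.9% of all genes. Among cBAF genes, DPF2 was at 6.95 and 6.98 FPKM and ARID1B at 1.88 and 1.77 FPKM, so ARID1A, at 0.24, had the highest log2 change of the 3 measured. In the non-canonical form (ncBAF), BRD9 was at 1.74 and 2.20 FPKM, BICRA at 2.20 and 2.79 FPKM, and BICRAL at 3.92 and 3.81 FPKM.

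The complexes around the histone-modifying members were also spread on both sides of 0. The KMT2 and SETD1 complexes held 19 measured genes, 11 higher and 8 lower, with a median log2 change of 0.028. The share of higher genes, 57.9%, was close to the 57.3% of all genes, and 0 of the 19 were above 0.5 or below -0.5, against 9.9% and 6.12% of all genes. KDM6A had the highest value of this list. SETD1A, an H3K4 methyltransferase, followed at 10.1 FPKM with shNC and 12.9 FPKM with shKIAA1429. The lowest were PAGR1, a partner of KMT2C and KMT2D that overlaps another listed gene on its strand, at 15.8 and 13.3 FPKM, and WDR82 at 17.7 and 15.9 FPKM. The BAP1 complex had 6 higher and 4 lower of 10 measured genes, near the 57.3% higher of all genes, and ASXL3 was not listed. In this list MBD6 was at 20.6 and 26.3 FPKM, ASXL2 at 7.41 and 9.06 FPKM, FOXK2 at 11.1 and 10.3 FPKM, and KDM1B, an H3K4 demethylase, at 5.35 and 3.70 FPKM. BAP1 itself, at -0.041, stood between FOXK2 and the higher genes of its complex.

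SETD2, at 0.13, belonged to a list of 12 genes of H3K36 methylation, of which 7 were higher and 5 lower. The share of higher genes was 58.3%, against 57.3% of all genes, and the median log2 change was 0.053, against 0.058. NSD2, an H3K36 dimethyltransferase, was at 6.25 FPKM with shNC and 3.05 FPKM with shKIAA1429. Its log2 change of -0.84 was the lowest in any of these lists, and it lay between -1.01 and -0.80 under the alternatives. ASH1L was at 7.32 and 9.87 FPKM, KDM2A at 4.58 and 6.05 FPKM, and SMYD2 at 9.46 and 8.39 FPKM.

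The genes of H3K27 methylation, to which KDM6A belongs, were mostly higher. Of 13 measured genes 12 were higher in the shKIAA1429 library and 1 was lower, against 57.3% higher of all genes, and the median log2 change was 0.27 against 0.058. Centring on the median of all genes left 11 higher, against 50% of all genes, and removing the length and GC trend left 10, against 49.8%. After rescaling 13 of 13 were higher, against 74.6% of all genes. PHF1, an accessory subunit of the H3K27 methyltransferase complex PRC2, was at 6.60 FPKM with shNC and 11.4 FPKM with shKIAA1429, a log2 change of 0.71. With the pseudocount of 1 it was the only 1 of the 13 genes above 0.5, against 9.9% of all genes. Below -0.5 were 0 of the 13, against 6.12% of all genes. JARID2 was at 1.18 and 2.07 FPKM, a ratio of 1.75 without a pseudocount, against 1.73 for PHF1. EZH2, the catalytic subunit, was at 11.2 and 15.1 FPKM, and its share of the sum with its paralog EZH1 was 74.8% and 78.2%. RBBP4 was at 15.0 and 15.2 FPKM and EED, a core subunit, at 1.56 and 1.45 FPKM. The methyltransferase EZH2 and the demethylases KDM6A and KDM6B, which act against each other, were thus all higher in the shKIAA1429 library. These lists were not tested against other genes.

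**Figure D5:**
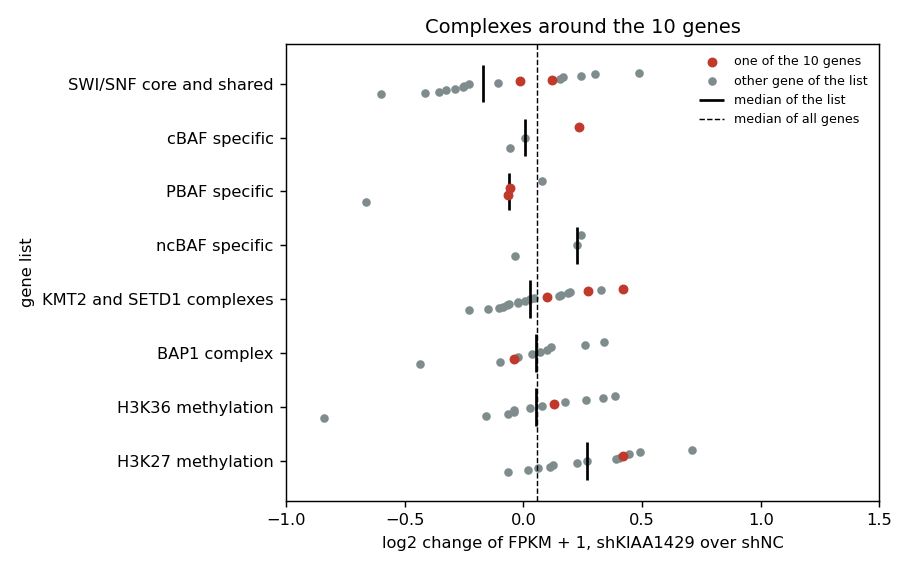
Log2 change of each measured gene in 8 lists around the 10 genes, which are marked, with the median of each list as a bar and that of all genes, 0.058, as a dashed line. The H3K27 methylation list has a median of 0.27 and the core and shared SWI/SNF list a median of -0.17.

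SETD2, BAP1 and PBRM1 lie within the same stretch of chromosome 3 of GRCh37, from 47057919 to 52719933, with 5229571 bases between SETD2 and BAP1 and 135001 bases between BAP1 and PBRM1. Of the other 84 genes measured in this stretch, 34 were higher in the shKIAA1429 library and 50 were lower, with a median log2 change of -0.13. This is 40.5% higher, against 57.3% of all genes. These genes had a median level of 6.09 FPKM in the control and 5.14 FPKM with shKIAA1429, against 5.70 and 6.10 FPKM over all genes. SETD2, at 0.13, was above the median of its neighbors, as were BAP1 and PBRM1, at -0.041 and -0.065. Without the filter on low values the stretch held 101 such genes, 44 of them higher, and the median was nearer to 0, at -0.048. After rescaling, 49 of the 84 and 74.6% of all genes were higher, and the median of the stretch was 0.031, against 0.24 for all genes. With the length and GC trend removed it was -0.11, on a scale where the median of all genes is 0. The difference of this stretch from other genes was not tested.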

How the data were processed

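Polyadenylated RNA of ACHN cells was sequenced in strand-specific libraries, 1 library per group, although the sample titles read total RNA-seq. The authors deposited FPKM values per gene, and the submitters' processing notes name cutadapt 1.9, HISAT2 2.0.4, StringTie 1.3.4d, DESeq2 and edgeR. The genome build is not given in the sources used here, and gene positions in the files are those of GRCh37. The files list 12014 rows, all of protein-coding genes, and no row is at or under 0.5 FPKM in both libraries. FPKM keeps no counts, so depth and counting error are unknown.

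Of the rows that share a symbol (7 symbols) the most abundant was kept, genes with a mean of at least 1 FPKM were used (10702), and a pseudocount of 1 was added. No test was run. Limits of 0.5, 1 and 1.5 on the log2 scale describe size. Transcripts came from GENCODE 29 (GRCh38), matched by Ensembl identifier for 10642 genes (99.4%), and the trend with length and GC content was taken off as the medians of 10 by 10 bins. The members and lists were chosen with earlier results of these data known. From each list the genes with the 2 highest and the 2 lowest changes were named, besides the members, the pairs, KIAA1429 and a few others chosen after their values were seen. Only the log2 change and the removal of the trend were tested on simulated data. For the log2 change, the planted changes were far larger than those of the members. Python 3.11.15, NumPy 2.4.6, pandas 2.3.3 and matplotlib 3.10.9 were used.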

Additional observations from a re-analysis of the deposited data

How the results depend on the processing

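Each result was recomputed with a pseudocount of 0.1, centring, both rescalings, no filter, a mean of at least 5 FPKM, no overlapping genes, the trend removed and rows of a symbol summed. With no replicates, a median was taken as moved from 0.1 on the log2 scale, and a count from 1.5 times. The median of the 10 genes lay between 0.050 and 0.29, and 0 of them passed 1 under any of these settings. KDM6A was the 1 gene past 0.5 with a pseudocount of 0.1 and with either rescaling. Rescaling to a sum of 1000000 moved the median of the 10 genes to 0.29, with 10 above 0. The pseudocount was added after this rescaling, so log2 changes did not all move by the same amount or in the same direction. By construction this rescaling multiplied the ratio of both libraries by the same factor for every gene. It moved the medians of the core SWI/SNF, cBAF, PBAF and ncBAF lists to -0.022, 0.18, 0.10 and 0.46, of all SWI/SNF genes to 0.12 and of the 21 that are not members to 0.081, of the KMT2 and SETD1, BAP1, H3K36 and H3K27 lists to 0.21, 0.23, 0.24 and 0.47, and of the chromosome 3 stretch to 0.031. A mean of at least 5 FPKM left 7 of the 10 genes, 2 cBAF genes with a median of 0.12 and 5 H3K36 genes with a median of 0.26, and 14 SWI/SNF genes that are not members with a median of -0.24. Without overlapping genes the 2 remaining ncBAF genes had a median of 0.10. With the trend removed the medians were -0.22 for PBAF and -0.056 for H3K36; the cause was not tested. With no filter the median of the chromosome 3 stretch was -0.048 over 101 genes, against -0.13 over 84. The settings for this stretch and for the SWI/SNF genes that are not members were chosen after seeing the data. Neither a replicate could be left out nor a block fitted. No paired analysis was possible because each group is a single library. Unknown depth limits most the genes with low values, such as KDM6A.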
